A study of Mus musculus with 6 samples.

Results

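The genes for receptors of glutamate, GABA and glycine were followed in ATAC-seq peak lists of mouse embryonic stem cells before and after release from self-renewal medium. ATAC-seq uses a transposase that inserts sequencing adapters into accessible DNA, so that listed intervals mark open chromatin. An interval was counted for a receptor gene when the nearest end of any protein-coding gene to its midpoint, within 100 kb, was an end of that gene in RefSeq on mm10. The 40 genes comprised 24 for glutamate receptors and 16 for the inhibitory GABA and glycine receptors. Of all 91228, 88810 and 78055 intervals in the 2iL, 48 h and 96 h lists, 173, 186 and 180 fell to glutamate receptor genes and 46, 53 and 58 to inhibitory receptor genes. Where intervals of different lists shared 1 bp or more they were joined into a region, which gave 347 regions at receptor genes, 272 glutamatergic and 75 inhibitory, of 131410 in all. The intervals of the outermost members lay 98.3 kb (Grid1, 2iL), 97.1 kb (Grm4, 48 h) and 98.4 kb (Grin2a, 96 h) from a gene end, with fold enrichments of 4.93, 18.3 and 6.80. The nearest interval left out by the 100 kb limit lay 100.4 kb from Grik3 in each list, with fold enrichments of 8.76, 10.3 and 13.4.

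The cells were of the E14 line, derived from a blastocyst. The 2iL group grew in N2B27 medium with CHIR99021, an inhibitor of the kinase GSK3, PD0325901, an inhibitor of the kinase MEK, and the cytokine LIF. The 48 h and 96 h groups were collected 48 and 96 h after these additions had been withdrawn and cells were left in N2B27 alone. Each group had 2 samples, A and B, but 1 peak list, so no spread between samples could be measured and no test between conditions was possible. The labels do not say whether A and B came from separate cultures. All comparisons below are therefore between lists, and fold enrichment at the strongest summit of an interval is the authors' value within its own list. In bulk chromatin, fewer cells with an open site and weaker opening in each cell cannot be told apart. A region placed at a gene need not act on it.

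Ionotropic glutamate receptors are cation channels assembled from subunits of the AMPA, kainate or NMDA class, and carry most fast excitation in the brain. Metabotropic glutamate receptors and the GABA-B receptor act through G proteins. GABA-A and glycine receptors are pentameric chloride channels that usually inhibit mature neurons, although chloride can depolarise immature ones. In non-neuronal cells many neuronal genes are held down by the repressor REST, which binds the RE1 element, and Gria2, the gene for the AMPA subunit GluA2, is a classical gene with such an element.

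The starts of the receptor genes differed in sequence as well as in accessibility. RefSeq start windows of GRCm38.p6, which run from 250 bases before to 50 bases after a start, were matched by symbol for 29 of the 40 genes, 36 windows in all, and not for Grik1, Grm5, Gabrd, Grm4, Grin3a, Grin2b, Glra1, Grid1, Gria3, Grin2a and Gria1. The following 4 windows are printed 5′ to 3′ on the strand of the gene, because they show the start with the highest fold enrichment (Gria2), a CpG-rich start listed only after withdrawal (Gabbr2) and starts in no list (Gabra3 and Gabra6). In Gria2 (chr3:80802786-80803085, minus strand) the capitals mark the RE1 match, and in the others they mark CpG dinucleotides. The other windows are Gabbr2 (chr4:46991665-46991964, minus strand), the first of the Gabra3 windows (chrX:72656758-72657057, minus strand), which holds no CpG, and Gabra6 (chr11:42321023-42321322, minus strand).
Gria2: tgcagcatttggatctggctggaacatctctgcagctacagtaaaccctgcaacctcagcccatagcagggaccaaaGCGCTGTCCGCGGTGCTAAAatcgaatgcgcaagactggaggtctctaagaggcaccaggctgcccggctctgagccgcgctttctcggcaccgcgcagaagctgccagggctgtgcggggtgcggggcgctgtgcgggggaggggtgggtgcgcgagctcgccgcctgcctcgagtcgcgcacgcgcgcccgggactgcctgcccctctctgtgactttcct
Gabbr2: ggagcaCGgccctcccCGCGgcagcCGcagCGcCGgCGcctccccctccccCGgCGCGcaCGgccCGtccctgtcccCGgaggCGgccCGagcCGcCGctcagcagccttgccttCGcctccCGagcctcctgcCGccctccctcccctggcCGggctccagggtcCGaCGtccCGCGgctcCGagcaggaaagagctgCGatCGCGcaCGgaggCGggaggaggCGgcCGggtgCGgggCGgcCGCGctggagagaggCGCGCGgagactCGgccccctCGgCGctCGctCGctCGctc
Gabra3: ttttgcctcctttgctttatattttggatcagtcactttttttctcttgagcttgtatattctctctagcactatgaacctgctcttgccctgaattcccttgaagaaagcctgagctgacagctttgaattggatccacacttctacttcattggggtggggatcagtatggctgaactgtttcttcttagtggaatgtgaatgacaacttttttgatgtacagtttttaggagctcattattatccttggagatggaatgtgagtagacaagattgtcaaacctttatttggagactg
Gabra6: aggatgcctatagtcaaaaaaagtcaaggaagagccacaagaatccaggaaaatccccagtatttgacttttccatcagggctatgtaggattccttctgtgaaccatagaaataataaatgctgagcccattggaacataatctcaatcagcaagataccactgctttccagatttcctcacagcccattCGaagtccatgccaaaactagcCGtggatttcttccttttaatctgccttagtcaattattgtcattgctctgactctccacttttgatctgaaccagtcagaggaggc

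An interval lay over 27 of the 36 receptor windows in 2iL, 30 at 48 h and 30 at 96 h. These are shares of 75%, 83.3% and 83.3%, beside 49.0%, 51.1% and 49.8% of all 32851 RefSeq start windows. In all 3 lists 26 windows were covered. The third window of Gabrb2 was covered in 2iL only, by an interval of 1507 bp that also lay over the other windows of the gene. Narrower intervals of 1132 bp at 48 h and 1141 bp at 96 h covered those other windows. Another 5 windows were in none of the lists. The 5 were a pair at Gabra3 and 1 each at Gabra6, Grm8 and Gabrb1, with 0 to 9 CpGs and a median of 2, whereas the 26 had 3 to 50 CpGs and a median of 14. Over all windows the medians were 3 CpGs for the 15028 in no list and 21 for the 14951 in all 3. Always-listed receptor starts thus had a lower median CpG count than all always-listed starts, a difference that was not tested. Covered at 48 h and 96 h but not in 2iL were 4 windows (11.1%, against 2.82% of all windows). They belonged to Gabbr2 with 46 CpGs, Grin2c with 22, Grik5 with 10 and the second window of Grm8 with 10. The intervals over them were weak, with fold enrichments of 2.84, 4.49, 3.98 and 4.87 at 48 h and 2.91, 4.03, 4.18 and 3.44 at 96 h. In 2iL Gabbr2 already had another interval within 1 kb of its start, and so did Grm8, over another of its start windows, with a fold enrichment of 12.3. Grin2c and Grik5 had intervals within 1 kb of an end in 2iL only at the lower end, which is not where these minus-strand genes start. Just beyond that limit at the upper end, each had a region in all 3 lists. That of Grik5 (25076777 to 25077736) was centred 1.56 kb outside the gene, with fold enrichments of 16.6, 11.5 and 12.4. That of Grin2c (115265096 to 115265654) was centred 1.92 kb inside, with 4.80, 4.95 and 6.32. The plot of CpG counts shows the spread of these windows.

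**Figure D1:**
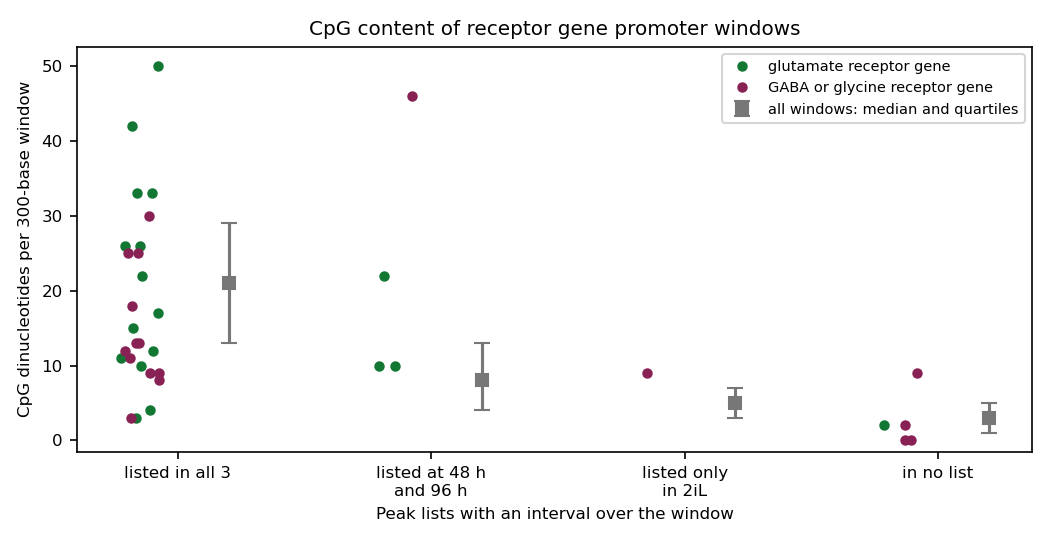
CpG dinucleotides in 300-base RefSeq start windows (vertical axis) of 29 receptor genes, by the peak lists with an interval over the window (horizontal axis). Each circle is 1 window, and grey squares with bars are medians and quartiles of all 32851 windows; receptor windows in all 3 lists spread from 3 to 50 CpGs, and those in no list from 0 to 9.

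The RE1 search used the letters TTCAGCACC and GGACAGCGC with 2 bases between them, on both strands, and allowed at most 3 mismatches over the 18 letters. Among the 36 receptor windows it matched 1, at Gria2, with 1 mismatch and the matched bases GCGCTGTCCGCGGTGCTAAA on the strand of the gene, 173 to 154 bases before the start. Of all windows, 37 or 0.113% held a match. The interval over this window had the highest fold enrichment of all receptor intervals in 2iL, 24.6, and 19.9 and 20.6 in the 48 h and 96 h lists. None of the 36 windows held ATGCAAAT, an octamer bound by POU factors, TCAAGGTCA, bound by ESRRB, or ACAATGG, bound by SOX factors, which were in 1.74%, 0.423% and 3.66% of all windows on either strand. A letter match is a description of the window, and the letters searched do not cover weaker sites or sites elsewhere in the gene.

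Most receptor genes were accessible at an end in 2iL already. An interval lay within 1 kb of an end at 23 of 24 glutamate receptor genes in 2iL and at 24 in both later lists. The inhibitory genes had such an interval at 14 of 16 in 2iL and 15 of 16 at 48 h and at 96 h. Over all 21883 protein-coding genes the shares were 67.6%, 69.7% and 68.0%. Only Gria1, Gabra3 and Gabra6 lacked such an interval in 2iL. The first 2 had it at 48 h and 96 h, beside 11.6% and 9.90% of the genes that lacked it in 2iL genome-wide. Gabra6, which encodes the alpha6 subunit of cerebellar granule cells, had none in any list. No receptor gene with an interval at an end in 2iL was without one later, beside 2.43% of such genes at 48 h and 4.24% at 96 h. At 48 h only Gabra6 lacked such an interval, so a share to set beside the genome-wide 3.56% that gained one by 96 h could not be measured. Of the 24 glutamate and 15 inhibitory receptor genes with such an interval at 48 h, none was left without any at 96 h, beside 4.09%. Shares this low correspond to few genes here, so the absence of losses is not read as a difference. The number of intervals within 1 kb of an end still differed at some genes, such as Grin2b (2 at 48 h and 1 at 96 h) and Grm4 (2 and 4). Marker genes also had such intervals. In the 2iL, 48 h and 96 h lists they lay at 7, 8 and 8 of 8 pluripotency markers, at 4, 6 and 6 of 6 neural progenitor markers, and at 7, 7 and 7 of 8 neuron markers.

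Counted together, the genes of each group had more intervals after withdrawal than before it, while the lists as a whole were shorter. Glutamate receptor genes had 180 at 96 h against 173 in 2iL, and inhibitory ones 58 at 96 h against 46 in 2iL. At 96 h more intervals than in 2iL were found at 8 of 24 glutamate receptor genes (33.3%) and fewer at 10 (41.7%), and the counts for inhibitory genes were 6 of 16 (37.5%) and 4 (25%). Of the 18024 genes with an interval in either list, 25.5% had more and 46.0% had fewer at 96 h. In the first step, 48 h against 2iL, 12 glutamate receptor genes had more and 6 fewer, and 6 inhibitory genes had more and 4 fewer, beside 33.9% and 34.2% of genes. In the second, 96 h against 48 h, 7 glutamate receptor genes had more and 11 fewer, and 5 inhibitory genes had more and 3 fewer, beside 18.3% and 44.5%. The glutamate receptor genes with more intervals were therefore in the majority of the differing ones in the first step and in the minority in the second. Receptor genes were long, with median lengths of 258.9 kb for glutamate and 160.4 kb for inhibitory receptor genes, against 17.2 kb for all protein-coding genes. In the 2iL, 48 h and 96 h lists 68.8%, 65.6% and 67.8% of glutamatergic intervals and 56.5%, 64.2% and 74.1% of inhibitory ones lay inside the gene, beside 55.4%, 54.6% and 55.6% of all intervals placed at a gene. Exons and introns were not told apart. Median fold enrichments were 8.02, 7.02 and 7.31 for glutamatergic intervals and 9.70, 10.5 and 9.27 for inhibitory ones in the 2iL, 48 h and 96 h lists, beside 8.29, 8.14 and 8.79 for all intervals.

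**Figure D2:**
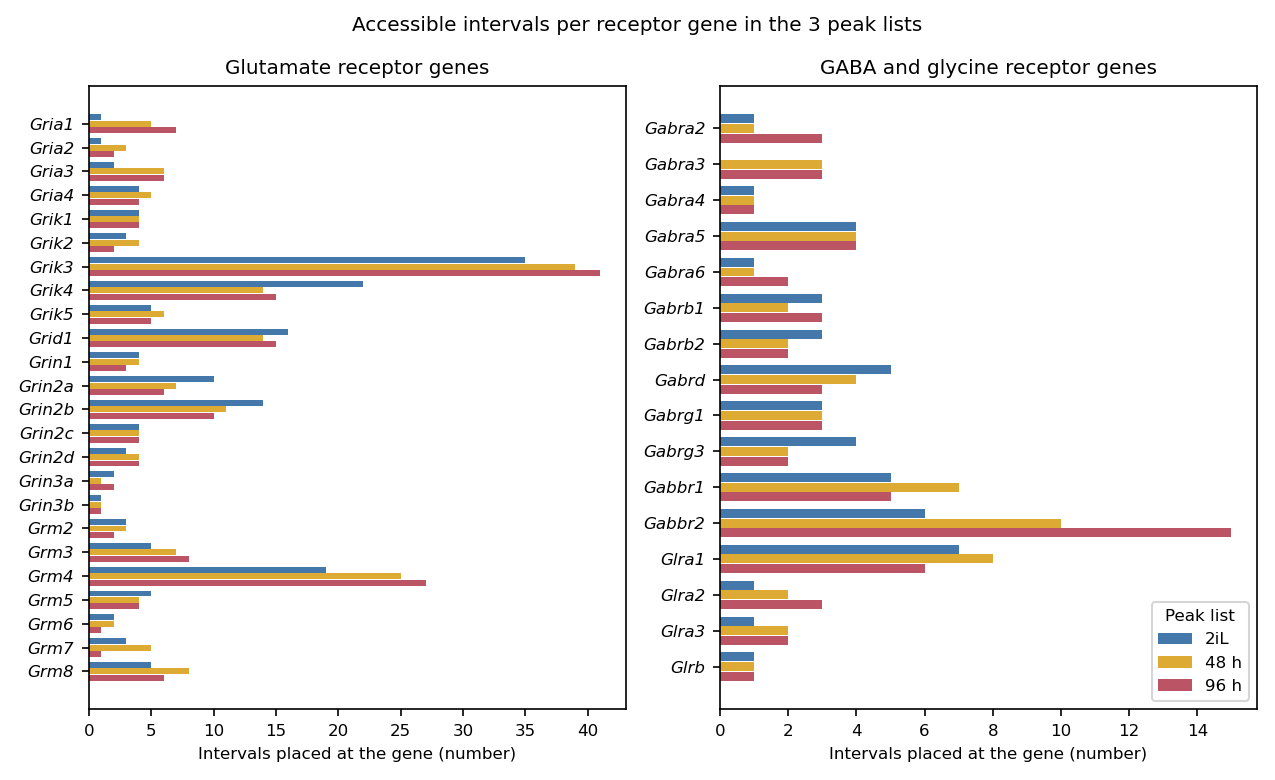
Number of intervals placed at each glutamate (left) and GABA or glycine receptor gene (right) in the 2iL, 48 h and 96 h peak lists (bars from top to bottom). Grik3 holds 35, 39 and 41 intervals, Grik4 holds 22, 14 and 15, and Gabbr2 holds 6, 10 and 15.

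The first comparison asked which sites differed 48 h after withdrawal from those in 2iL. An interval of the earlier list that shared no base with the later list is called lost, and an interval of the later list that shared none with the earlier list is called gained. Glutamate receptor genes gained 72 of 186 intervals at 48 h, 38.7% (31.7 to 46.1, exact Clopper-Pearson 95% interval, which covers counting error only), and inhibitory genes gained 16 of 53, 30.2% (18.3 to 44.3). Over the whole 48 h list 31.1% was gained. Glutamate receptor genes lost 57 of 173, 33.0% (26.0 to 40.5), and inhibitory genes lost 8 of 46, 17.4% (7.82 to 31.4), beside 32.9% of the whole 2iL list. The interval of the inhibitory loss lay below the genome-wide share and that of the glutamatergic gain lay above it, while the other 2 contained it. Neither call held under all 6 alternative settings. The glutamatergic gain contained the genome-wide share in 4, with lists of equal length (29.4 to 44.7, beside 30.7%), with gene ends within 50 kb (27.1 to 43.7, beside 31.1%), without Grik3 (30.2 to 46.5, beside 31.1%) and among intervals above the median −log10 p of their list (9.94 to 25.9, beside 10.9%). The inhibitory loss contained it in the last of these (3.51 to 29.0, beside 16.0%). The 50 kb limit was applied to receptor intervals only, so the share beside it covers intervals at any distance. Neighbouring intervals at a gene are not independent, and Grik3 alone held 20.2% of the glutamatergic intervals in 2iL.

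Between 48 h and 96 h glutamate receptor genes gained 40 of 180 intervals, 22.2% (16.4 to 29.0), and inhibitory genes 14 of 58, 24.1% (13.9 to 37.2), beside 21.1% of the 96 h list. They lost 47 of 186, 25.3% (19.2 to 32.2), and 10 of 53, 18.9% (9.44 to 32.0), beside 30.6% of the 48 h list. All 4 of these intervals contained the genome-wide share. With gene ends within 50 kb the glutamatergic loss lay below it (14.7 to 29.0, beside 30.6% of intervals at any distance).

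Set directly against 2iL, the 96 h list had gained 77 of 180 intervals at glutamate receptor genes, 42.8% (35.5 to 50.4), and 25 of 58 at inhibitory genes, 43.1% (30.2 to 56.8), beside 35.5% of all its intervals. Lost by 96 h were 69 of 173, 39.9% (32.5 to 47.6), and 13 of 46, 28.3% (16.0 to 43.5), beside 44.7% of the 2iL list. The interval of the inhibitory loss lay below the genome-wide share and the other 3 contained it, that of the glutamatergic gain only at its lower bound. The inhibitory loss contained the genome-wide share with lists of equal length (13.2 to 40.3, beside 39.8%), among intervals above the median −log10 p (7.21 to 36.4, beside 27.0%) and without Gabbr2 (16.6 to 46.5, beside 44.7%). The glutamatergic loss lay below it with gene ends within 50 kb (22.3 to 39.3, beside 44.7% of intervals at any distance). The glutamatergic gain lay above the genome-wide share when an overlap had to cover 0.5 of the shorter interval (36.5 to 51.5, beside 35.7%). As merged regions, 93 of 272 glutamatergic (34.2%) and 32 of 75 inhibitory regions (42.7%) were in all 3 lists, beside 35.9% of all regions. Regions only in 2iL made up 53 (19.5%) and 8 (10.7%), beside 20.8%, and regions at 48 h and 96 h but not in 2iL 40 (14.7%) and 11 (14.7%), beside 10.4%. Regions only at 96 h numbered 36 (13.2%) and 14 (18.7%), beside 10.5%.

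**Figure D3:**
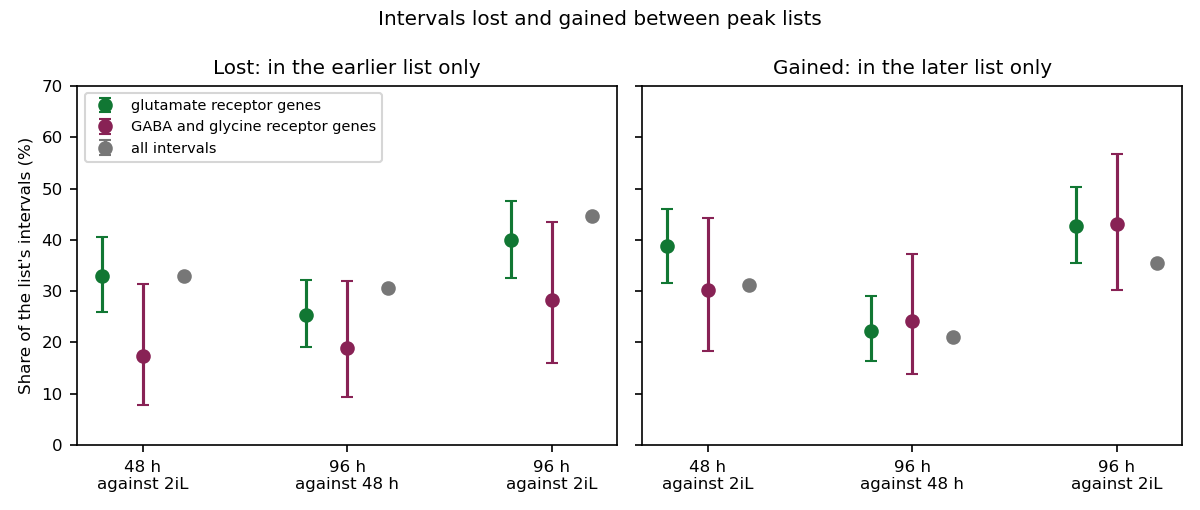
Share of a list's intervals (%) that were lost (left) or gained (right) in 3 comparisons of peak lists, for glutamate receptor genes, for GABA and glycine receptor genes, and for all intervals. Points are shares and bars exact 95% binomial intervals for counting error; at 96 h against 2iL the gained shares are 42.8%, 43.1% and 35.5%.

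The AMPA receptor genes, which encode the subunits GluA1 to GluA4, had 8 intervals in 2iL and 19 in each of the later lists. Gained since 2iL were 13 of the 19 intervals at 96 h, 68.4% (43.5 to 87.4), beside 35.5% of all intervals, and 2 of the 8 in 2iL were lost, 25% (3.19 to 65.1), beside 44.7%. Of the 13, Gria1 held 6, Gria3 4, Gria4 2 and Gria2 1. Shares of receptor subfamilies were not recomputed under the alternative settings. Gria1 (chromosome 11, 57011571 to 57330244) had 1, 5 and 7 intervals. Its only region in 2iL (57310636 to 57311157), inside the gene and 19.4 kb from its upper end, was in all 3 lists with fold enrichments of 5.39, 8.78 and 8.94. At its lower end a region (57011393 to 57012025) was listed at 48 h and 96 h with fold enrichments of 7.36 and 9.74. A region 33.4 kb inside (57044499 to 57045461) was listed with 14.7 at 48 h and 8.41 at 96 h. A further 3 regions were listed only at 96 h, among them that at 57298295 to 57298646, which had the highest fold enrichment (14.1) of the glutamatergic regions found only there. The regions of Gria1 were thus listed in steps, 4 of its 8 first at 48 h and 3 first at 96 h. Of all regions 10.5% were only at 48 h, 10.4% at 48 h and 96 h, and 10.5% only at 96 h. Gria3 (chromosome X, 41400819 to 41678601) had 2, 6 and 6 intervals, and 4 of the later ones were gained while neither 2iL interval was lost. Inside it a region at 41627398 to 41627947 had fold enrichments of 13.9 at 48 h and 9.21 at 96 h. Gria2 had 1, 3 and 2 intervals, and Gria4 4, 5 and 4.

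Kainate receptor genes held the most intervals of any receptor class, 69, 67 and 67, and Grik3 and Grik4 accounted for most. Grik3 (chromosome 4, 125490259 to 125714173), for the GluK3 subunit, had 35, 39 and 41 intervals, of which 22, 22 and 25 lay inside the gene. Its 58 regions comprised 18 in all 3 lists and 12 only in 2iL (31.0% and 20.7%, beside 35.9% and 20.8% of all regions). A further 8 were only at 48 h, 10 only at 96 h and 7 at 48 h and 96 h. These were 13.8%, 17.2% and 12.1% of its regions, beside 10.5%, 10.5% and 10.4%. Gained since 2iL were 17 of its 41 intervals at 96 h, and 15 of 35 in 2iL were lost, close to the 35.5% and 44.7% of all intervals. The region 32.5 kb below the gene (125457303 to 125458129) was listed at 48 h and 96 h with fold enrichments of 16.9 and 13.6, and a region inside the gene (125634878 to 125635803) only in 2iL with 13.3. At its start the fold enrichment was low throughout, 3.58, 2.55 and 3.44. That start window held 50 CpGs, the highest number among receptor windows.

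Grik4 (chromosome 9, 42518182 to 42945000), for GluK4, had fewer intervals after withdrawal, 22, 14 and 15 in the 3 lists. Of its 28 regions 11 were only in 2iL, 7 in all 3 lists and 4 only at 96 h, beside 20.8%, 35.9% and 10.5% of all regions. The strongest glutamatergic region found only in 2iL (42512387 to 42512962, fold enrichment 14.3) lay 5.51 kb below its lower end. Within the gene the region at 42550010 to 42550783 was in all 3 lists with fold enrichments of 8.09, 14.3 and 23.2, the highest value of a receptor interval at 96 h. The other kainate genes had few intervals, 2 to 6 in any list. Grid1 (chromosome 14, 34820003 to 35583387), for the delta-class subunit GluD1, had 16, 14 and 15 intervals. It gained 6 of 15, 40%, and lost 7 of 16, 43.8%, between 2iL and 96 h, close to the 35.5% and 44.7% of all intervals, and 8 of its 24 regions were in all 3 lists, beside 35.9% of all regions.

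NMDA receptor genes had 38, 32 and 30 intervals. Gained since 2iL were 8 of the 30 at 96 h, 26.7% (12.3 to 45.9), and lost were 14 of the 38 in 2iL, 36.8% (21.8 to 54.0), and these intervals contained the genome-wide 35.5% and 44.7%. Grin2b (chromosome 6, 135713221 to 136173615), for GluN2B, the main GluN2 subunit before birth, had 14, 11 and 10. Grin2a (chromosome 16, 9567901 to 9996083), for GluN2A, which replaces much of GluN2B after birth, had 10, 7 and 6. At Grin2b 8 of 21 regions (38.1%) were only in 2iL and 4 (19.0%) in all 3 lists, beside 20.8% and 35.9% of all regions. Those only in 2iL included 136113259 to 136114384 inside the gene, with a fold enrichment of 12.9. A region 23.3 kb inside its upper end (136149847 to 136150752) was in all 3 lists with fold enrichments of 23.0, 14.7 and 19.3. Grin1, for the obligatory GluN1 subunit, had all 4 of its regions in all 3 lists. It was counted with 4, 4 and 3 intervals, because the midpoint of the region at its lower end (25289885 to 25292514) was nearer to the neighbouring gene Lrrc26 at 96 h. The interval over its start had fold enrichments of 11.5, 15.2 and 16.4, and 1 region inside it (25304703 to 25305958 on chromosome 2) had 5.86, 10.5 and 15.8. Grin2c, Grin2d, Grin3a and Grin3b had 1 to 4 intervals in any list.

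Metabotropic glutamate receptor genes had 42, 54 and 49 intervals. Grm4 (chromosome 17, 27422387 to 27513826), for the presynaptic Gi-coupled receptor mGluR4, accounted for 19, 25 and 27 of these. It gained 13 of its 27 intervals at 96 h since 2iL and lost 4 of 19, beside 35.5% and 44.7% of all intervals. Its 33 regions comprised 14 in all 3 lists, 7 only at 96 h and 6 at 48 h and 96 h. Those were 42.4%, 21.2% and 18.2%, beside 35.9%, 10.5% and 10.4% of all regions. The strongest of the last kind (27400993 to 27402234) lay 20.8 kb below the gene with fold enrichments of 7.78 at 48 h and 16.9 at 96 h. New regions at 96 h included 27422380 to 27422661 and 27422751 to 27423593 beside its lower end. Grm3 had 5, 7 and 8 intervals. A region 30.6 kb above it (chromosome 5, 9755424 to 9756433) had 23.2, 19.0 and 6.34. Grm7 had 3, 5 and 1 intervals, and its region at 111621549 to 111622144 on chromosome 6, 54.6 kb from the gene, was the strongest glutamatergic one found only at 48 h, with 13.3. Grm8 had 5, 8 and 6, Grm5 5, 4 and 4, Grm2 3, 3 and 2, and Grm6 2, 2 and 1.

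**Figure D4:**
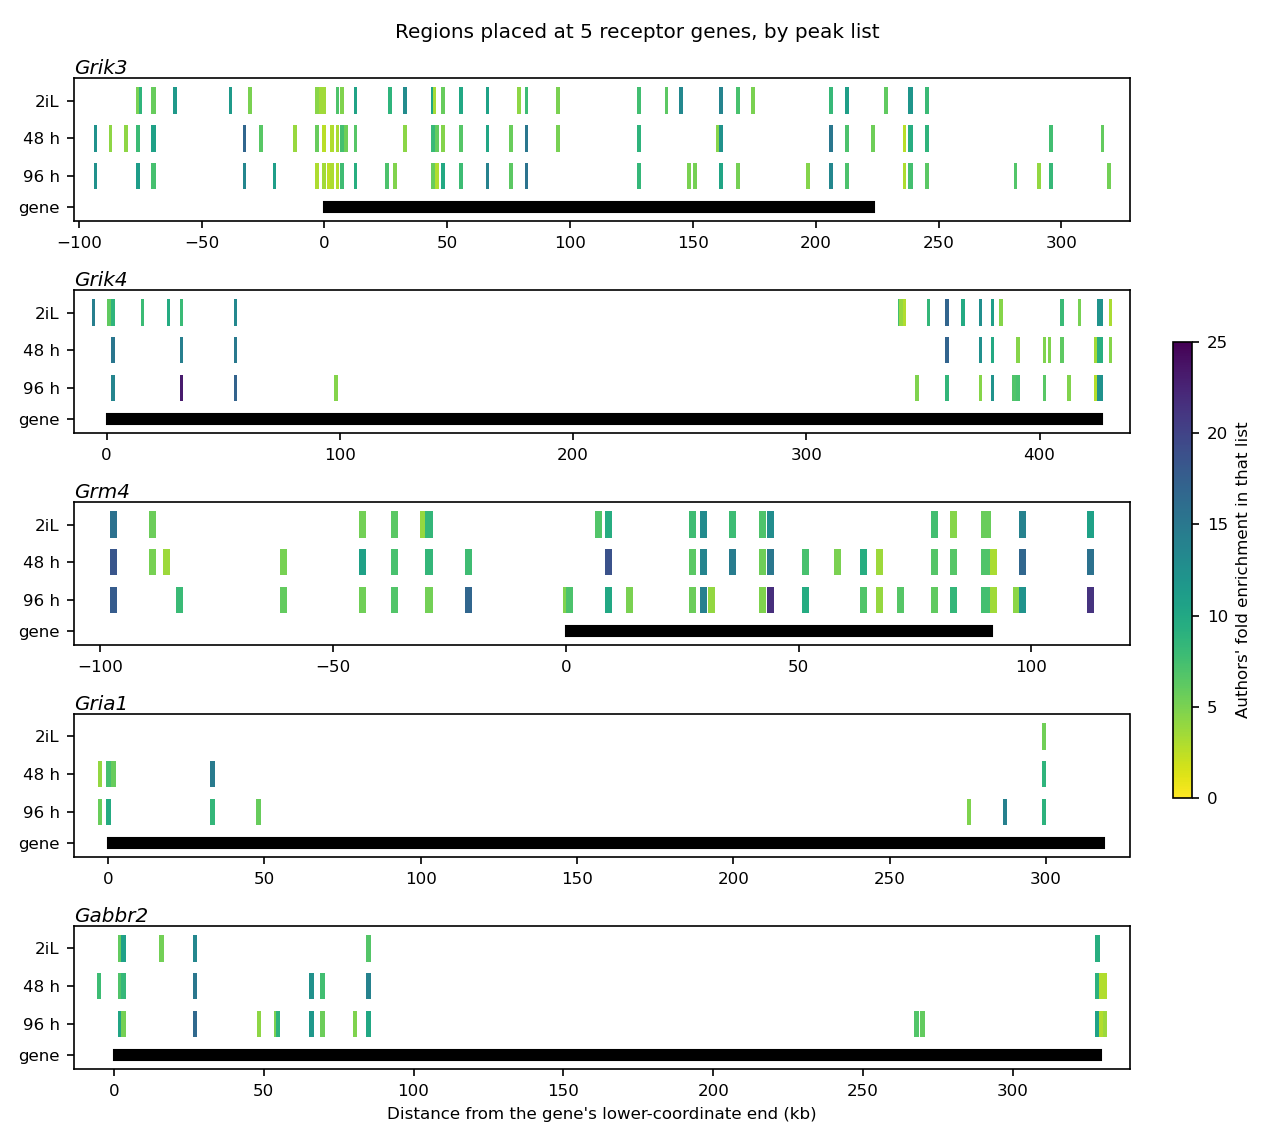
Regions placed at Grik3, Grik4, Grm4, Gria1 and Gabbr2 in the 2iL, 48 h and 96 h lists (rows), by distance from the gene's lower-coordinate end (kb); the black bar is the gene and colour the authors' fold enrichment in that list. A region is drawn at its merged extent and at least 1.5 kb wide; Gria1 has 1 region in 2iL, and Gabbr2 has 6 regions drawn at 96 h alone.

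Of the inhibitory receptors, the GABA-B genes had 11, 17 and 20 intervals, and gained 11 of the 20 since 2iL, 55.0% (31.5 to 76.9), an interval that contained the 35.5% of all intervals. Gabbr2 (chromosome 4, 46662318 to 46991714), whose product couples the GABA-B receptor to G proteins, had 6, 10 and 15 intervals. It gained 10 of its 15 by 96 h and lost 1 of 6, beside 35.5% and 44.7% of all intervals. Of its 17 regions 5 were in all 3 lists, 4 at 48 h and 96 h and 6 only at 96 h. Those were 29.4%, 23.5% and 35.3%, beside 35.9%, 10.4% and 10.5% of all regions. Inside the gene lay 13 of the 15 intervals at 96 h. The region at 46689019 to 46689948 was in all lists with fold enrichments of 13.4, 15.1 and 16.5. New ones were that at 46728024 to 46728662, with 12.5 at 48 h and 11.7 at 96 h, and that at 46716805 to 46717578, with 8.92 at 96 h alone. The printed start window of Gabbr2 lies under a weak region of the 48 h and 96 h lists, while the interval beside it inside the gene was listed throughout with 9.28, 8.998 and 10.6. Gabbr1, for the subunit that binds GABA, had 5, 7 and 5 intervals.

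GABA-A receptor genes had 25, 23 and 26 intervals, with 0 to 5 at a gene. Gabra3 (chromosome X, 72432676 to 72656919), for the alpha3 subunit, was the only receptor gene with 0 intervals in 2iL, and had 3 at 48 h and 3 at 96 h, in the same 3 regions. The region closest to its start (72654985 to 72656732) had fold enrichments of 11.04 at 48 h and 9.42 at 96 h and stopped short of the printed window. The others at 72637016 to 72637542 and 72644707 to 72644994 had 10.5 and 6.62 at 48 h, and 6.87 and 8.21 at 96 h. Gabra4 and Gabrb1 lie head to head on chromosome 5 and shared the interval at their starts, with fold enrichments of 14.5, 13.5 and 13.2. The strongest inhibitory region in all 3 lists (71700541 to 71701561, with 20.1, 22.4 and 21.2) was placed at Gabra4, the nearest gene end, but lay within Gabrb1. It began shortly after the second RefSeq start window of Gabrb1 (71699682 to 71699981), which no list covered. Its placing at Gabra4 is therefore uncertain. The strongest inhibitory regions found only in 2iL lay 69.2 kb from Gabrb2 (chromosome 11, 42701459 to 42702095) and inside Gabrg3 (chromosome 7, 57357789 to 57358635), with 13.5 each. Gabrd, for the delta subunit of extrasynaptic receptors, had 5, 4 and 3 intervals, and a region 2.22 kb below it (chromosome 4, 155382323 to 155383197) was listed only at 96 h with 14.7. Gabra6, with no interval at its ends, had a region inside the gene in all 3 lists with 11.3, 10.5 and 10.7. Gabra2 had 1, 1 and 3 intervals, Gabra5 4 in each list, and Gabrg1 3 in each.

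Glycine receptor genes had 10, 13 and 12 intervals. Glra1, for the adult alpha1 subunit, had 7, 8 and 6, and among them the strongest inhibitory region listed at 48 h and 96 h but not in 2iL (chromosome 11, 55601439 to 55602130), 6.41 kb inside its upper end with fold enrichments of 20.1 and 20.6. In each list an interval lay within 1 kb of an end of Glra1, with 12.9, 13.0 and 13.0. Glra2, for the fetal alpha2 subunit, had 1, 2 and 3 intervals, all inside the gene. Glra3 had 1, 2 and 2. Glrb, for the beta subunit that anchors the receptor at synapses, had 1 in each list, at its start, with 16.2, 17.0 and 15.6.

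Partner genes of the same synapses were counted in the same way. The list of 32 genes of excitatory synapses, with scaffolds such as Shank2, AMPA receptor auxiliary subunits such as Shisa6, and vesicular glutamate transporters, had 141, 185 and 177 intervals. More were found at 96 h than in 2iL at 19 of its genes and fewer at 8. Genome-wide, 25.5% of genes with an interval in either list had more and 46.0% had fewer. Of its 177 intervals at 96 h, the excitatory list had gained 84 since 2iL, 47.5% (39.9 to 55.1). It lost 47 of 141, 33.3% (25.6 to 41.8). Its gain lay above and its loss below the genome-wide shares of 35.5% and 44.7%. Partner genes were not recomputed under the alternative settings, and these bounds cover counting error only. Shisa6 had 1, 7 and 9, and Shank2 6, 9 and 13. The 20 genes of inhibitory synapses, with GABA synthesis and transport, had 83, 101 and 94 intervals. At 96 h 9 of these genes had more and 8 had fewer, beside the same 25.5% and 46.0%. They gained 39 of 94, 41.5% (31.4 to 52.1), and lost 28 of 83, 33.7% (23.7 to 45.0), and both of these intervals contained the genome-wide shares. Slc6a11, for the GABA transporter GAT3, had 1, 9 and 12, whereas Gad1, for a GABA-synthesising enzyme, had 11, 9 and 8. Counts at markers of other cell states also differed between the lists. Intervals numbered 137, 108 and 76 at 8 pluripotency markers, 25, 50 and 40 at 4 primed markers, 36, 47 and 52 at 6 neural progenitor markers, 43, 53 and 57 at 8 neuron markers, 25, 36 and 39 at 4 extraembryonic endoderm markers, and 33, 32 and 38 at 4 fibroblast markers. Of the 8 neuron markers, 3 had more intervals at 96 h than in 2iL and 2 had fewer. Rbfox3 alone had 11, 19 and 25, while Stmn2 had 10, 7 and 5. The part of these other cell states in the receptor counts was not tested.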

How the data were processed

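ATAC-seq of 6 samples of E14 cells, 2 in each of 3 groups, was analysed from 3 deposited peak lists, 1 per group. Both samples of a group name the same list, per the labels. Tools named by the submitters' processing notes are BWA, Picard, SAMtools and bcl2fastq 2.20.0.422, with the build mm10. For the peak caller, its settings, any read shift and the depth, the sources used here give nothing, and each could alter which weak intervals are listed. The authors' fold enrichment is a linear ratio. Their deposited p values are given as −log10. A deposited score, a whole number, was not used. Summits were joined into intervals, and the summit strongest by −log10 p stands for its interval.

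Intervals were placed by midpoint at the nearest end of 21883 protein-coding genes (NCBI RefSeq, GRCm38.p6), in which all 40 members were found, and compared with Python 3.11.15, numpy 2.4.6, pandas 2.3.3 and scipy 1.17.1. Placing and overlap were tested on simulated data. The planned use of the transcription start for the 1 kb count was replaced by either gene end for all members, since strand was given for 29, and start windows were counted apart. Genes described in full had at least 10 intervals in a list, a difference of at least 4 between 96 h and 2iL, or an end interval in some lists only, and regions were the 3 strongest of each class. Other genes and regions were picked after their values were seen. The members and lists were chosen with earlier results of these data known. Alternatives were another overlap, stronger intervals, lists of equal length, placing by summit, a limit of 50 kb, and the leading gene left out.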

Additional observations from a re-analysis of the deposited data

How the results depend on the processing

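Of 108 values recomputed under other settings, 96 stayed within the interval of the share, or within 1.5 times the count, and 12 shares moved. Shares were smaller among intervals above the median −log10 p of their list. There, glutamate receptor genes gained 16.8% and lost 18.4% at 48 h against 2iL, gained 1.19% and lost 6.32% at 96 h against 48 h, and gained 19.0% and lost 20.7% at 96 h against 2iL. Inhibitory receptor genes gained 14.7%, 6.06% and 15.2% in these comparisons and lost 12.5%, 2.94% and 18.75%. Intervals above the median were compared with the whole of the other list, weaker intervals included. Of all intervals above the median, 10.9%, 4.79% and 15.1% were gained and 16.0%, 8.54% and 27.0% lost. With gene ends within 50 kb, glutamate receptor genes lost 24.6% at 48 h and 30.3% at 96 h against 2iL, beside 32.9% and 44.7% of all intervals at any distance. The cause was not tested. Counts of genes with an interval at an end were recomputed under settings chosen after seeing the data, and none differed by more than 1.5 times. Among intervals above the median −log10 p they were nevertheless lower. In the 2iL, 48 h and 96 h lists they were 18, 21 and 22 glutamate receptor genes, against 23, 24 and 24 in the full lists. Inhibitory receptor genes numbered 12, 14 and 13 there, against 14, 15 and 15. No paired analysis was possible because samples A and B share 1 list, and neither could be left out. Peak lists carry no depth, so an unlisted site may lie just under the authors' limit.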

Other observations

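The 3 receptor genes on chromosome X (Gria3, Gabra3 and Glra2) together had 3, 11 and 12 intervals in the 2iL, 48 h and 96 h lists, while all of chromosome X had 1691, 1731 and 1578. This grouping was made after the values were seen.

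Of the 37 RefSeq start windows with an RE1 match, intervals of the 3 lists, in order of time, covered 32, 35 and 35 (86.5%, 94.6% and 94.6%), beside 49.0%, 51.1% and 49.8% of all windows; the windows were not matched on CpG content. Of the regions in all 3 lists, 53 of 93 glutamatergic (57.0%, 46.3 to 67.2) and 21 of 32 inhibitory ones (65.6%, 46.8 to 81.4) were wider at 96 h than in 2iL, beside 51.9% of all 47176 such regions.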
